A study of Homo sapiens with 6 samples.

Results

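A set of 21 genes had low values in every miR-31 KO library and clear values in every control library. They were chosen by 2 limits on normalized read counts: all 3 KO values under 10 and all 3 control values at 15 or more. Of 986 genes in the authors' deposited table, 30 met both limits (3.04%), and 9 of these were left out by symbol (HENMT1, GAGE2A, KCNN2, DUOXA1, ZNF256, RNF212, PCDHA6, CDH3 and PCDHB14). Genes called lower or higher below passed the authors' adjusted p-value limit of 0.05. The 21 genes are therefore defined by the difference between the groups, and that difference is given below as a description, with no test. The authors listed 393 genes as lower in miR-31 KO, which is 2.34% of the 16806 genes that their adjusted p-values imply were tested. The 3 KO values lay below the 3 control values in 373 of the 986 listed genes (37.8%), and in the 21 genes by construction. Only the 393 lower genes could meet this condition, so it held for nearly all of them. SLITRK2, a neuronal adhesion protein gene, and NHLRC1, which encodes the ubiquitin ligase malin, were given as the markers of the set, and both were in it.

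The cells were K1, a cell line of human papillary thyroid carcinoma kept in DMEM with 10% fetal bovine serum, and their RNA was sequenced in bulk. Control cells received an unspecified control by transfection, and miR-31 KO cells received an sgRNA, the guide of the Cas9 nuclease, directed at miR-31. Titles number 3 libraries in each group, although the series text speaks of duplicates. The sources used here do not say whether cells were cloned or whether libraries were separate cultures, so the spread between libraries may be technical. An effect of the sgRNA and any other difference between the transfected populations cannot be told apart, nor can fewer cells that express a gene and less RNA per cell. Normalized counts of the 986 listed genes summed to between 545354 and 943360 per library, and total depth is unknown from this table. Of 11 genes that define thyroid cells, only SLC26A4 was listed, as lower. Because the table holds selected genes, the labelled cell type could not be checked against the others, and neither miR-31 nor its host gene was listed.

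MicroRNAs pair through their seed, bases 2 to 8, with matching sites in the 3' untranslated region of messenger RNAs and lower the output of those messengers. Loss of a microRNA is thus classically associated with a rise of its direct targets. Some of the 21 genes are best known from tissues other than the thyroid, such as SLITRK2 and CDH10 from the brain, DMRT1 from the testis and MIOX from the kidney.

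The mature sequence of the targeted microRNA is printed from RefSeq (GRCh38.p14, chr9:21512158-21512178, minus strand), with the seed in capitals, because the sites below are its complement.
hsa-miR-31-5p: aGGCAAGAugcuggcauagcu
Seed matches were searched as TCTTGCC (7mer-m8), CTTGCCA (7mer-A1) and TCTTGCCA (8mer, which contains both) on the messenger strand of the longest annotated 3' untranslated region in GENCODE release 29. Such a region was annotated for 18 of the 21 genes, and 3 of these held a site (16.7%). Among all listed genes the share was 70 of 374 lower genes (18.7%) and 115 of 582 higher genes (19.8%). With 8mer and 7mer-m8 sites alone the same 3 genes held a site (16.7%), against 12.03% of lower and 13.9% of higher genes, so the order of the shares depended on the kinds counted. The 3 genes were the GTPase gene ARL10, the somatostatin receptor gene SSTR2 and DYNAP. For SSTR2 and ARL10, a site that pairs with base 8 of the microRNA is shown in capitals, for ARL10 the first of 2 such sites.
SSTR2 8mer: atacaagtgttTCTTGCCAaaactcgcagc
ARL10 7mer-m8: gggttttatccTCTTGCCcaggctggtct
ARL10 and SSTR2 had the longest 3' untranslated regions of the 18, 10014 and 6204 bases, against a median of 965. A match is a description of the sequence and not evidence of pairing.

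The 21 genes were low to moderate in control cells. Their control means ran from 19.2 to 90.4 normalized counts with a median of 24.7, against a median of 117 for all 393 genes listed as lower. A KO limit of 10 favours genes with low control values, so this gap follows at least in part from the choice. Control means were under 30 in 13 genes and 30 or more in 8, and SLITRK2 was the only 1 above 60. In miR-31 KO the means ran from 0 to 7.11 with a median of 4.41. The genes differed in how much signal was left. The KO mean was under 2 in 7 genes (among them SLITRK2, LOC112268473, NHLRC1, SERPINB9, OR51B5 and FAM46D), which had less than 10% of the control mean. In 9 genes the KO mean was 5 or more, and the remaining signal reached 30.1% of control in LAMB4. "Switched off" therefore describes the 7 genes better than the set as a whole. SLITRK2 was the 1 gene listed at 0 in all 3 KO libraries, 6 genes were listed at 0 in at least 1, and 15 had a value above 0 in all 3. The median difference of log2(value + 1) was -2.65, against -1.58 over all listed lower genes, where the limits alone favour a large difference. In the authors' deposited table the log2 fold changes of the 21 genes ran from -9.51 to -1.70 and their adjusted p-values from 2.13e-32 to 0.00863.

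**Figure D1:**
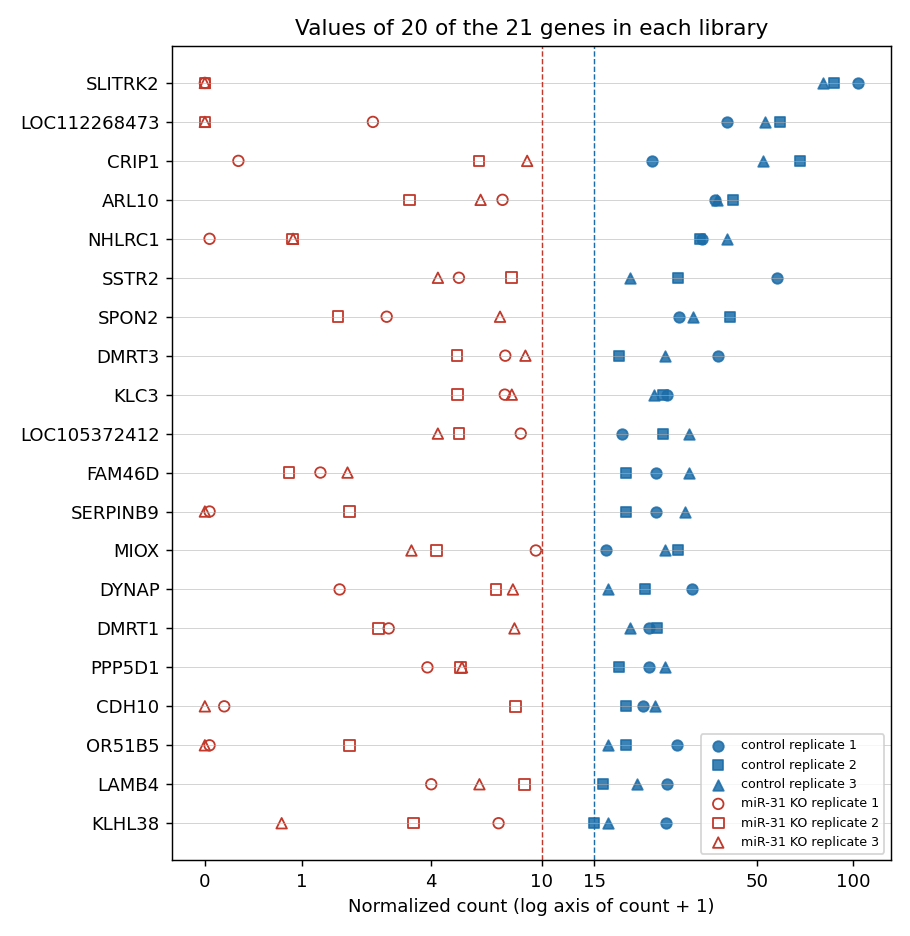
Normalized counts of 20 of the 21 genes in the 3 control libraries (filled) and the 3 miR-31 KO libraries (open), on a log axis of the count + 1, ordered by control mean; dashed lines mark the limits of 10 and 15. SLITRK2 stands at 0 in all KO libraries and between 80.6 and 104 in controls, while KLHL38 and LAMB4 have a control library close to 15. Circles, squares and triangles are replicates 1, 2 and 3.

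**Figure D2:**
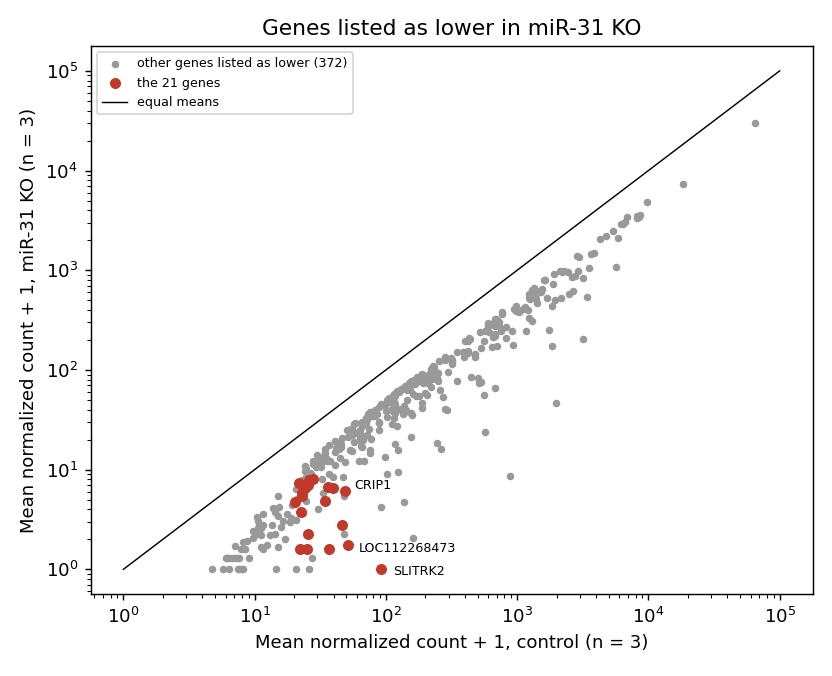
Control mean against miR-31 KO mean of all 393 genes listed as lower (n = 3 libraries per group, log axes of the mean + 1), with the 21 genes in red and the line of equal means in black. The 21 genes sit at the low end of the control scale, between 19.2 and 90.4, and all but 1 of them, SLITRK2, have a control mean under 60.

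The cell surface and matrix genes included the most abundant member. SLITRK2, a leucine-rich repeat membrane protein that controls neurite outgrowth and synapse formation, had normalized counts of 104, 87.2 and 80.6 in the control libraries (here and below in the order of replicates 1, 2 and 3). It was listed at 0 in each of the 3 KO libraries, so no fold is given. Its control mean was 90.4 ± 11.9 (SD, n = 3). Its adjusted p-value in the authors' deposited table was 2.13e-32, the smallest of the set. CDH10, a type II cadherin of the brain, had 21.6, 19.04 and 23.6 in the controls and 0.148, 8.15 and 0 in the KO libraries. The controls of CDH10 were even, with a coefficient of variation of 10.7%, while KO replicate 2 carried nearly all of the remaining KO signal. SPON2, a secreted matrix protein that takes part in innate defence, had 28.3, 41.1 and 31.4 in the controls and 2.65, 1.58 and 7.18 in the KO libraries. LAMB4, a laminin beta chain of basement membranes, had 25.8, 16.03 and 20.6 against 4.01, 8.75 and 6.07. LAMB4 had the smallest log2 difference of the set in the authors' deposited table, -1.70, and its control replicate 2 lay close to the control limit of 15.

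Of the receptors, SSTR2, a G protein-coupled receptor for the hormone somatostatin, had 57.8, 28.1 and 19.6 in the controls and 5.10, 7.88 and 4.26 in the KO libraries. Control replicate 1 was 2.43 times the mean of the other control libraries, the largest such ratio of the 21 genes. OR51B5, an olfactory receptor gene on chromosome 11, had 27.9, 19.04 and 16.7 in the controls and 0.0340, 1.80 and 0 in the KO libraries. Its annotated span on GRCh38 overlaps 10 other protein coding genes in GENCODE release 29, among them OR51B2 and the globin genes HBE1 and HBG2, none of which was listed. OR51B2, HBE1 and HBG2 lie on the same strand as OR51B5, so counting by strand would not separate them. Other overlapping genes lie on the opposite strand, and the sources used here do not say whether reads were counted by strand. Reads of overlapping genes may therefore be mixed.

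The 4 genes grouped under sexual development and testis had control means between 22.1 and 27.04. DMRT1, a DM domain transcription factor required for testis differentiation, had 22.7, 24.04 and 19.6 in the controls and 2.70, 2.45 and 8.07 in the KO libraries. DMRT3, also a DM domain factor, is known from spinal cord neurons in mice and horses, so its place in this group is uncertain. DMRT3 had 37.5, 18.04 and 25.5 in the controls and 7.49, 5.03 and 8.80 in the KO libraries. For both genes KO replicate 3 was the highest of the KO libraries. KLC3, a kinesin light chain described in rat sperm cells, had 25.9, 25.05 and 23.6 against 7.46, 5.05 and 7.90, and its controls were the most even of the set (coefficient of variation 4.77%). FAM46D, now named TENT5D, belongs to a family of non-canonical poly(A) polymerases and is known as a testis gene. It had 23.8, 19.04 and 30.5 in the controls and 1.28, 0.821 and 1.76 in the KO libraries, the only 1 of these 4 genes with less than 10% of its control mean left.

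The enzymes and inhibitors included several of the lowest KO values. NHLRC1 encodes malin, a ubiquitin ligase that acts with laforin in glycogen metabolism and whose loss causes the epilepsy Lafora disease. It had 33.6, 33.1 and 40.3 in the controls and 0.0340, 0.864 and 0.874 in the KO libraries. The means were 35.7 ± 4.05 and 0.591 ± 0.482 (SD, n = 3), so that 1.66% of the control mean was left. The same 3 KO values were listed for MAEL (below), so the size of this remaining share is uncertain. The authors' deposited table gave NHLRC1 a log2 fold change of -5.55 with an adjusted p-value of 6.12e-14, from a test that the sources used here do not name. SERPINB9, an intracellular inhibitor of the protease granzyme B known from cytotoxic lymphocytes, had 23.8, 19.04 and 29.5 against 0.0340, 1.80 and 0. MIOX, a kidney enzyme that starts the breakdown of myo-inositol, had 16.4, 28.1 and 25.6 against 9.56, 4.21 and 3.35. KO replicate 1 of MIOX was the highest KO value of any of the 21 genes, and its control replicate 1 was the lowest control of the gene. KLHL38, of the kelch-like family whose members often serve as substrate adaptors of cullin ligases, had 25.7, 15.03 and 16.7 against 7.10, 3.42 and 0.728.

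Of the small proteins, CRIP1, a cysteine-rich LIM domain protein of the intestine, had 23.2, 68.1 and 52.1 in the controls and 0.270, 6.05 and 8.93 in the KO libraries. In both groups replicate 1 was the lowest library of CRIP1, and its means were 47.8 ± 22.8 and 5.08 ± 4.41 (SD, n = 3). ARL10, a GTPase of the ARF-like family, had 36.8, 42.1 and 37.3 against 7.33, 3.30 and 6.13, with a control coefficient of variation of 7.48%. DYNAP, a membrane protein that binds dynactin, had 31.1, 22.04 and 16.7 against 1.61, 6.95 and 7.97. The remaining loci were a gene without a RefSeq match and transcribed pseudogenes. LOC112268473, the gene without a match, was the most abundant gene after SLITRK2, with 40.2, 59.1 and 53.1 in the controls and 2.31, 0 and 0 in the KO libraries. RefSeq lists PPP5D1 (now PPP5D1P) and LOC105372412 as transcribed pseudogenes of chromosome 19. PPP5D1 had 22.7, 18.04 and 25.6 against 3.88, 5.18 and 5.24, and LOC105372412 had 18.6, 25.05 and 30.5 against 8.48, 5.11 and 4.26. Reads of a pseudogene may be shared with related genes, so these values are uncertain.

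The sum of the 21 genes differed little among libraries of a group. It was 680, 681 and 668 normalized counts in the controls and 76.1, 79.2 and 81.5 in the KO libraries. As a share of all listed counts it was 0.110%, 0.119% and 0.123% in the controls. In the KO libraries the share was 0.00807%, 0.00852% and 0.0124%, highest in replicate 3, so the KO sums were even only in the values as listed. Single genes varied more, with control coefficients of variation from 4.77% to 57.1% and a median of 23.5%. Control replicate 1 was more than 1.5 times the mean of the other controls in 5 genes (SSTR2, DMRT3, KLHL38, DYNAP and OR51B5). In 3 genes (CRIP1 and MIOX among them) it was less than that mean divided by 1.5. Control replicate 1 was the highest control in 8 genes and the lowest in 7, so no control library was high or low for the set as a whole.

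**Figure D3:**
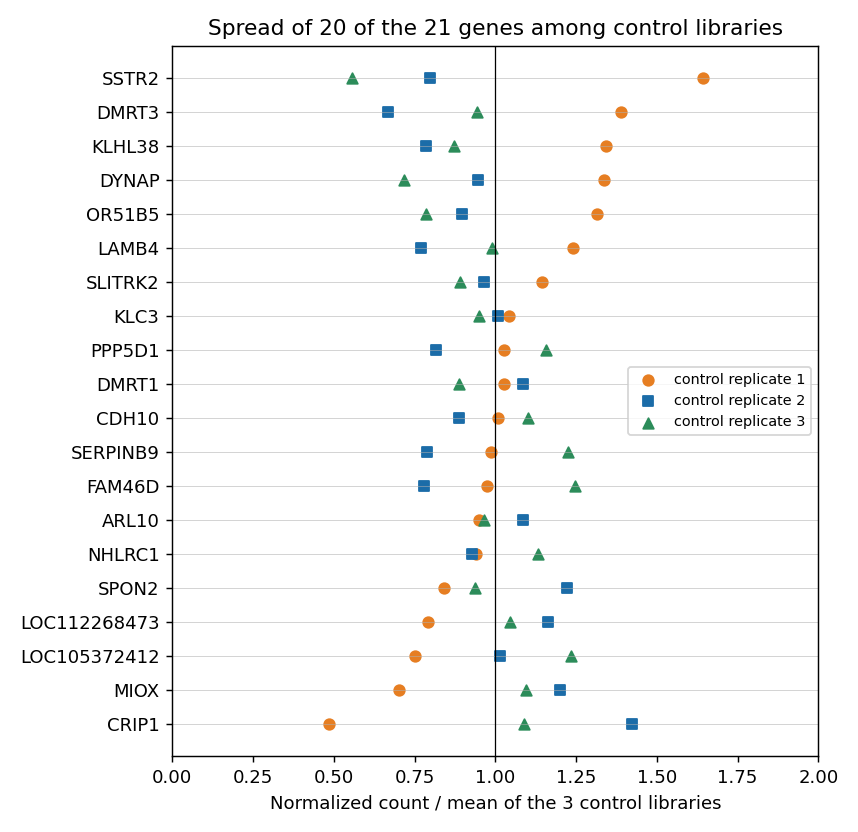
Each control library's normalized count divided by the mean of the 3 control libraries, for 20 of the 21 genes, ordered by control replicate 1. Replicate 1 runs from the lowest value in CRIP1 to the highest in SSTR2, and ARL10 and KLC3 have nearly equal controls.

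The form of the low values differed between libraries. In control replicate 2 the values of 17 of the 21 genes lay within 0.1 of a whole number, against 2 in control replicate 1 and 1 in control replicate 3, and 6, 6 and 10 in KO replicates 1, 2 and 3. SERPINB9 and OR51B5, unrelated genes on different chromosomes, had the same KO values within 0.01 in all 3 libraries, although their control values differed. NHLRC1 likewise shared its KO values of 0.0340, 0.864 and 0.874 with MAEL, a gene outside the set. Near-zero control values were shared too, as between CDH11 and TDRD9, which are also outside the set. The number of members listed at 0 was 1, 2 and 6 in KO replicates 1, 2 and 3. The sources used here do not name the adjustment that gave these values, and its part in the near-zero KO values was not tested.

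The limits were close to several genes. Just inside the KO limit stood MIOX, CRIP1 and DMRT3, with highest KO values of 9.56, 8.93 and 8.80, and just outside stood PTP4A3, HIST1H3J and LYNX1 with 10.5, 10.5 and 10.7. Just inside the control limit stood KLHL38, LAMB4 and MIOX, with lowest control values of 15.03, 16.03 and 16.4. Just outside stood CA9, OR51B4 and MYLK3, with 14.03, 13.7 and 13.7. PTP4A3, a phosphatase gene, had 74.7, 16.04 and 24.5 in the controls and 8.66, 10.5 and 3.26 in the KO libraries. HIST1H3J, a histone gene, had 21.7, 18.04 and 29.5 in the controls and 5.37, 10.4 and 10.5 in the KO libraries. LYNX1, which encodes a modulator of nicotinic receptors, had 42.9, 28.1 and 23.5 in the controls and 5.22, 5.03 and 10.7 in the KO libraries. In these 3 genes 1 or more KO values passed 10. The groups did not overlap, as controls of at least 15 and KO values close to 10 ensured by choice. MYLK3, a myosin kinase gene of the heart, had 29.98, 18.04 and 13.7 in the controls and 3.93, 6.05 and 6.13 in the KO libraries. CA9, a carbonic anhydrase gene induced by hypoxia, had 25.8, 14.03 and 18.7 in the controls and 0.116, 5.40 and 0.786 in the KO libraries.

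Some of the 21 genes lay beside other listed genes. Positions in GENCODE release 29 (GRCh38) were found for 19 of them, and 13 had another listed gene within 1 Mb. These were 28 distinct genes, 14 lower and 14 higher in miR-31 KO, beside 393 lower and 593 higher among all 986 listed genes. For 7 of the 19 the nearest listed gene lay within 100 kb, and it was also lower in 6 (85.7%). Over all listed lower genes with a listed neighbour that close, the neighbour was lower in 74 of 97 (76.3%), and over listed higher genes in 23 of 126 (18.3%). The 21 genes thus stood near the share of all lower genes, and this share is a description of neighbouring genes that are not independent.

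DMRT1 (chr9:841690-969090, plus strand) and DMRT3 (chr9:976964-991731, plus strand) are neighbours separated by 7.87 kb. They lie 20.5 Mb from MIR31 on the same arm of chromosome 9. DOCK8, a regulator of the cytoskeleton in immune cells, lies 376 kb from DMRT1 and went the other way, at 2.21, 0.00154 and 7.90 in the controls and 22.6, 33.3 and 11.7 in the KO libraries. OR51B5 (chr11:5303444-5505652, minus strand) is separated by 1498 bases from OR51B4, which had 24.7, 20.04 and 13.7 in the controls and was listed at 0 in all KO libraries.

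CRIP1 (chr14:105486317-105488947, plus strand) lies 6.15 kb from CRIP2, which encodes a related LIM domain protein. CRIP2 was far more abundant, with 1585, 2537 and 2296 in the controls and 422, 395 and 755 in the KO libraries, and as for CRIP1 control replicate 1 was the lowest control and KO replicate 3 the highest KO library. SPON2 (chr4:1166932-1208962, minus strand) lies 53.4 kb from the meiosis gene RNF212, which met both limits and was left out by symbol. MIOX lies 39.1 kb from ODF3B, which fell from 54.3 ± 22.8 to 14.2 ± 0.672 (SD, n = 3).

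The listed genes nearest to PPP5D1 went in opposite directions. CCDC8, a gene of the growth disorder 3-M syndrome found 67.1 kb away, fell from 566 ± 48.02 to 22.7 ± 1.55 (SD, n = 3). PNMA8B, which overlaps PPP5D1 in the annotation, was higher, at 0.692 ± 0.6003 in the controls and 6.19 ± 1.76 in the KO libraries. In all, 9 of the 19 genes overlap another annotated gene, 5 of them a protein coding gene (ARL10, CRIP1, KLC3, OR51B5 and PPP5D1).

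**Figure D4:**
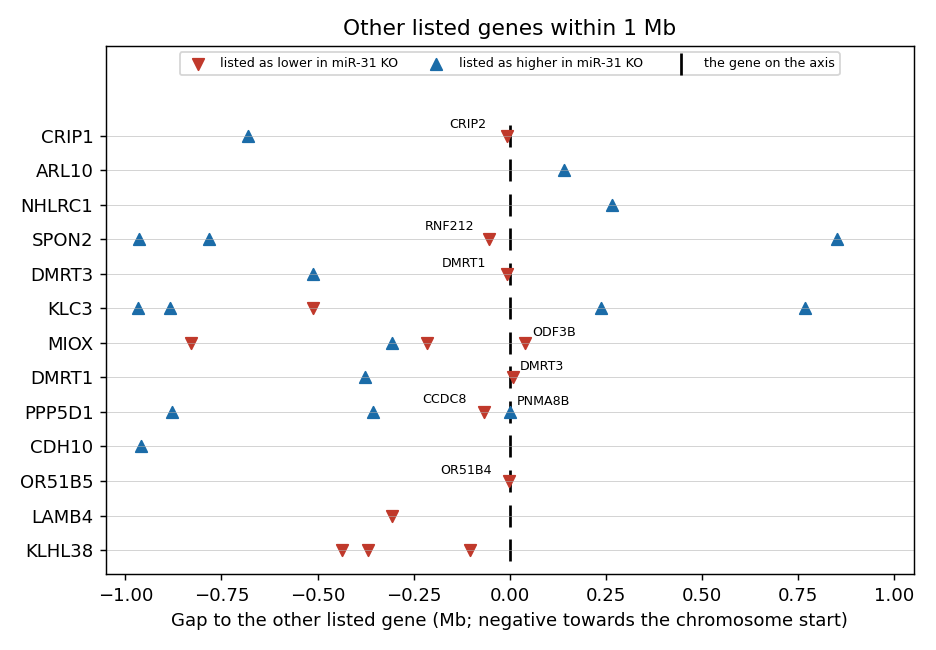
Gap in Mb from each of 13 genes (rows) to other listed genes within 1 Mb, with triangles down for genes listed as lower and triangles up for genes listed as higher in miR-31 KO. The neighbours closest to DMRT1, DMRT3, OR51B5, CRIP1, SPON2 and MIOX are lower, while PNMA8B, which overlaps PPP5D1, is higher.

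Relatives of the 21 genes, taken by symbol root once their values were known, numbered 15 in the table, 9 lower and 6 higher. Of all 986 listed genes, 393 were lower and 593 higher. SLITRK4, the nearest listed gene to SLITRK2 at 2.18 Mb on the X chromosome and of the same synaptic family, had 910, 563 and 563 in the controls and 73.4, 101.2 and 19.7 in the KO libraries. Both listed SLITRK genes were thus lower, and KO replicate 3 was the lowest for SLITRK4. The cadherins went in both directions. CDH11, typical of mesenchyme, was at 0.331 ± 0.568 in the controls and 172 ± 37.5 in the KO libraries (SD, n = 3), CDH20 and CDH7 were higher at low values, and CDH3 was lower. The olfactory receptors were also mixed, with OR51B4 and OR2L13 lower and OR2H2 and OR5B21 higher. LAMA3, a laminin alpha chain of epithelial basement membranes, fell from 3820 ± 331 to 1476 ± 82.7, and SPON1 fell from 1535 ± 242 to 645 ± 270.1.

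The functions of the 21 genes were set beside 14 lists of genes by function and tissue. Each list is given as the number listed and their direction, where 593 of all 986 listed genes were higher and 393 lower, and the 986 are 5.87% of the genes tested. How many genes of each list were among those tested is unknown. In all, 3 of the 21 genes (SLITRK2, NHLRC1 and OR51B5) were in any of the lists. Of 47 synapse adhesion and neurite outgrowth genes 8 were listed (17.02%), 5 higher and 3 lower, and SLITRK2 was the 1 member of the set. L1CAM, a neural adhesion molecule, fell from 5621 ± 424 to 1078 ± 376 (SD, n = 3), and the axon guidance receptor gene ROBO2 rose from 0.666 ± 0.566 to 35.6 ± 6.75. Of 57 genes of neurotransmitter receptors and synaptic release 7 were listed (12.3%), 5 higher and 2 lower. Those that fell were the nicotinic receptor gene CHRNA7, from 246 ± 29.1 to 17.5 ± 9.72, and the GABA receptor gene GABRA3, from 153 ± 12.5 to 20.1 ± 12.4. Of 26 genes of neuronal cytoskeleton and identity, MAP2 was the 1 listed, as lower. The listed genes of the 3 neural lists thus went in both directions.

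Testis and germline genes gave 3 of 67 listed (4.48%), 1 higher and 2 lower, and the list held none of the 21 genes. DMRT1, DMRT3, KLC3 and FAM46D, grouped above under sexual development and testis, are not on this list. The count thus reflects how the list was drawn and does not show that the set lacks testis genes. MAEL, a gene of germline transposon defence, had 9.77, 7.02 and 14.8 in the controls and 0.0340, 0.864 and 0.874 in the KO libraries, the KO values also listed for NHLRC1. TDRD9, of the same defence pathway, was higher, from 0.331 ± 0.568 to 22.2 ± 16.4 (SD, n = 3). Of 40 imprinted genes 4 were listed and all were lower. They were PEG10, from 18310 ± 1442 to 7325 ± 1223, MEST, from 214 ± 47.4 to 89.8 ± 42.1, DIRAS3, from 48.04 ± 14.7 to 10.99 ± 7.51, and NDN, listed at 0 in all KO libraries with 15.1, 17.03 and 8.81 in the controls. None of the 4 met both limits of the set.

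NHLRC1 was the 1 listed gene of 27 of glycogen metabolism and Lafora disease, so its partner gene EPM2A and the glycogen enzymes were not listed. Of the 22 olfactory receptor genes on the list 3 were in the table, all lower, while OR2H2 and OR5B21, which were higher, are not on that list. Of 10 hemoglobin genes none was listed. Of 63 motile cilia genes 7 were listed (5 higher, 2 lower), of 68 muscle genes 3 (2 higher, 1 lower) and of 26 hypoxia genes 1, CA9, as lower. Of 35 leukocyte markers 7 were listed (20%), 4 higher and 3 lower, at KO means from 5.98 to 72.5, and the part of other cell types in the values of SERPINB9 was not tested. Absence from the table gives no information on whether a gene changed.

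Promoter sequences, from 250 bases before to 50 after the gene start, were matched in RefSeq (GRCh38.p14) for 15 of the 21 genes, using the most upstream start in that table. The start lay within 1 kb of the GENCODE gene start in 13 of the 15. It lay inside the GENCODE gene for KLC3, by 7.32 kb, and for FAM46D, by 84.9 kb, so these windows belong to an internal start. Genes without a matched entry included LOC112268473, LOC105372412, OR51B5, PPP5D1 and KLHL38. A promoter was called CpG island type with a CpG observed over expected of at least 0.6 and a GC content of at least 50%. This held for 9 of the 15 (60%), for 54.9% of 273 listed lower genes and for 46.7% of all 27305 genes in the table. With a ratio of at least 0.75 and a GC content of at least 55% it held for 4 of the 15 (26.7%), against 35.2% and 35.1%, so the order of the shares depended on the rule. The values spread widely. NHLRC1 (0.860) and SERPINB9 (0.819) were at the top, and FAM46D (0), DYNAP (0.146) and LAMB4 (0.169) at the bottom. SLITRK2 had a GC content of 62.7% but a ratio of 0.387. With 7 CpG in the 250 bases shown, it stood between the CpG-rich promoters of NHLRC1 with 16 and DMRT3 with 19 and the promoter of FAM46D with 0.

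**Figure D5:**
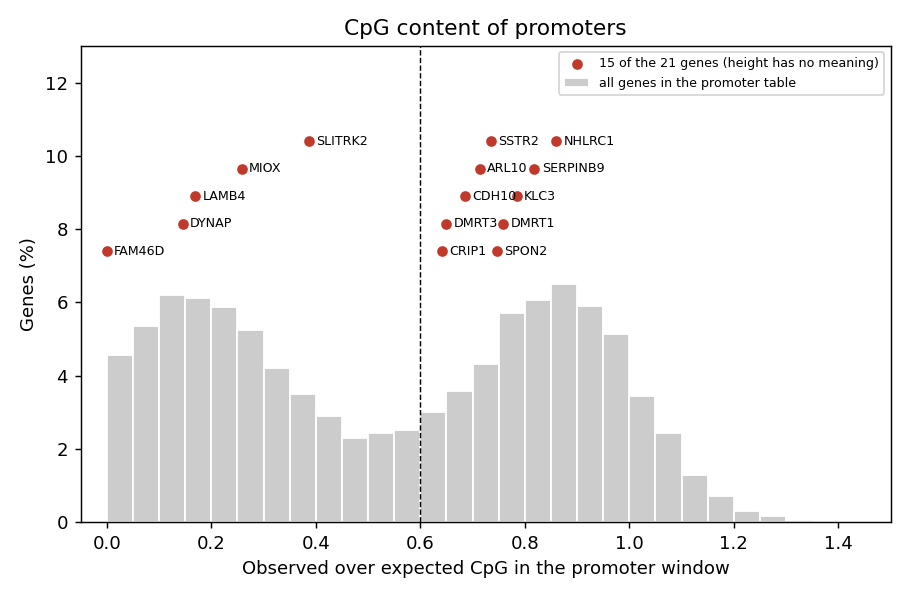
Distribution of CpG observed over expected in promoter windows of all 27305 genes (grey bars, percent of genes) with 15 of the 21 genes as red points, whose height has no meaning; the dashed line marks 0.6. The points lie in both modes, from FAM46D at 0 to NHLRC1 at 0.860, with SLITRK2 at 0.387.

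The upstream parts of 4 promoters are printed with each CpG in capitals, to show this range (RefSeq, GRCh38.p14). The windows are chrX:145817579-145817828 (SLITRK2, plus strand), chr6:18122678-18122927 (NHLRC1, minus strand), chr9:976405-976654 (DMRT3, plus strand) and chrX:80420197-80420446 (FAM46D, plus strand).
SLITRK2: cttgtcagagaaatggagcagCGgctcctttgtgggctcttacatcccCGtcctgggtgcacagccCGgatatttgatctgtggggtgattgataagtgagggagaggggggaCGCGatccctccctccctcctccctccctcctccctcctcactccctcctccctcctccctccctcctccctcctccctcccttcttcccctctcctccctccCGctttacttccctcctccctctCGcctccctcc
NHLRC1: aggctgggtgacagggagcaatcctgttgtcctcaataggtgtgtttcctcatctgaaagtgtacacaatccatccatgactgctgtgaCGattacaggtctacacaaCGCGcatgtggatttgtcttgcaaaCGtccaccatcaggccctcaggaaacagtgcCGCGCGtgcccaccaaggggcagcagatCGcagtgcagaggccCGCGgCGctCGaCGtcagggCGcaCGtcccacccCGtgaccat
DMRT3: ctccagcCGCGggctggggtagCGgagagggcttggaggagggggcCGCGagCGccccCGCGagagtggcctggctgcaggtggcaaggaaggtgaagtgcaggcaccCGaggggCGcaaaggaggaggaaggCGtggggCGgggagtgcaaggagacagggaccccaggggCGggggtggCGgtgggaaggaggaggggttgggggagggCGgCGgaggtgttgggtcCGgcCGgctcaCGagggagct
FAM46D: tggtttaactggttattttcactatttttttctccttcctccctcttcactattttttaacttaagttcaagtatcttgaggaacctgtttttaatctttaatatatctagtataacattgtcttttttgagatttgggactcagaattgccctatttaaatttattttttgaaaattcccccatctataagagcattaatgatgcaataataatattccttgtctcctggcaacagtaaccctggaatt
The motif TATAAA, on either strand of the 300 base window, was present in 3 of the 15 promoters (20%), those of SERPINB9, SPON2 and DYNAP, and in 12.0% of all genes in the table. The GC box GGGCGG, on either strand, was present in 8 of the 15 (53.3%) and in 44.5% of all genes. Among the 273 listed lower genes the shares were 10.3% for TATAAA and 54.6% for GGGCGG, so the GC box share was near that of lower genes. Both motifs are letters in a window, and they give no information on which factors act there.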

How the data were processed

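RNA sequencing of 3 control and 3 miR-31 KO libraries of K1 cells was analysed, grouped by titles. The submitters' processing notes name HISAT, RSEM and Bowtie2 as tools, and hg38 and hg19 as builds, without saying what each did. Which normalization and which test the authors chose is not given in the sources used here. The authors deposited a signal per library, a normalized read count per gene. They also deposited a log2 fold change, a p-value and an adjusted p-value; in all 986 genes the last was under 0.05 and the log2 fold change at least 1 in size.

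The genes and lists were chosen with earlier results of these data known. No test was computed, since the choice used the contrast between the groups. Differences used log2(value + 1). Of the 21 genes, 20 were named, with values in every library; 1 gene and 1 site sequence are counted but not reported here. Values were likewise given for the 3 genes on each side of each limit; relatives, neighbours and list genes given with values were chosen after their values were seen. The grouping of the 21 genes by role and the 4 promoters printed were also chosen after the values were seen. Gene positions came from GENCODE release 29 (GRCh38) for 967 of 986 genes, and 3' untranslated regions from its transcripts. RefSeq matched 20 of the 21 genes. Neighbours are listed genes with a gap of at most 1 Mb. Total depth is unknown, so no counting interval is given. Alternatives changed the limits, the scaling, the pseudocount, the motif kinds and the libraries used. Computations used Python 3.11.15, pandas 2.3.3, numpy 2.4.6 and matplotlib 3.10.9.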

Additional observations from a re-analysis of the deposited data

How the results depend on the processing

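The number of genes depended on the limits and the scaling. It was 21 as reported, 7 with a KO limit of 5, 8 with a control limit of 20, 48 with limits on group means, 32 with libraries scaled to the median column sum and 44 with quantile normalization. These scalings shifted the median log2 difference of all listed genes by -0.51 and -0.44. They acted on the listed genes alone, where 593 of 986 were higher and every KO column sum exceeded the control sums. Making the columns equal therefore lowered KO against control values, so more genes and larger differences follow from the choice of listed genes. The 21 genes were among those found under both scalings. Column sum scaling raised the control values and lowered the KO values, so it kept all 21 by construction. Quantile normalization shifted the values in the same direction. The 21 genes were also among those found under group means, and without each library in turn, which gave 23 to 30 genes. Group means and fewer libraries only loosen the limits, so all 21 were kept by construction. A mean of at least 10 over the 6 libraries left all 21, and leaving no gene out by symbol, an alternative added after the data were seen, gave 30. The 7 genes at a KO limit of 5 included SLITRK2, LOC112268473, NHLRC1, SERPINB9, FAM46D and OR51B5.

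The median log2 difference was -2.65, and -1.92 with a pseudocount of 5, -3.09 with column sum scaling and -3.49 with quantile normalization. Without each library it lay between -2.83 and -2.53. None of 210 values of single genes over these settings changed sign, as the choice of genes would give. CpG island type promoters numbered 9, and 4 (26.7%, against 35.1% of all genes) with an observed over expected of at least 0.75 and a GC content of at least 55%, by construction a stricter rule. With 8mer and 7mer-m8 sites alone 3 genes held a seed site as before, while the share of listed lower genes went from 18.7% to 12.03%. With values under 0.4 counted as 0, 1 gene was at 0 in all KO libraries as before. No paired analysis was possible because no result comes from a test between the groups.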
